A study of Mus musculus with 28 samples.

Results

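Nutrient and redox stress signalling in the mouse ovary was described through 10 genes chosen by symbol: the sestrins Sesn1, Sesn2 and Sesn3, the mTORC1 inhibitors Ddit4 and Ddit4l, the NADPH oxidase genes Nox1, Nox4 and Cyba, the peroxidase gene Gpx1, and Txnip. All 10 were matched to 1 Ensembl gene each, out of 44674 genes in the bulk table, and all 10 were among the 26790 genes tested. Bulk RNA-seq covered 24 libraries in 4 groups of 6 females, each library made from paired ovaries: wild-type (WT) and Chek2-/- females, each after sham treatment (0 Gy, nonIR in the labels) or a total-body dose of 0.5 Gy (IR), with ovaries taken 6 h later. The WT mice were C57BL/6J, the Chek2-/- mice carried the Chek2 tm1b(EUCOMM)Hmgu allele in every cell, and the bulk females were 7 to 9 days old. Single-cell RNA-seq covered 1 library for each of the same 4 conditions, each from the dissociated and pooled ovaries of 4 females aged 7 days. The single-cell libraries have no replicate check, and cells are not replicates of a condition. The study used the Chek2-/- ovaries to ask which responses to radiation need the checkpoint kinase CHEK2.

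Sestrins and the products of Ddit4 (REDD1) and Ddit4l (REDD2) restrain mTORC1, the kinase complex that drives cell growth when nutrients are plentiful. Sesn1 and Sesn2 are textbook p53 targets, Sesn3 is better known as a FOXO target, and Ddit4 responds to hypoxia, energy stress, glucocorticoids and DNA damage. NOX1 and NOX4 are catalytic subunits of NADPH oxidases, which make reactive oxygen species, and CYBA (p22phox) is the membrane subunit that they share with the phagocyte oxidase. GPX1 reduces hydrogen peroxide with glutathione, and TXNIP binds thioredoxin and limits glucose uptake. In the newborn ovary most oocytes lie in primordial follicles, and their DNA damage checkpoint runs through CHEK2 to TAp63 and p53.

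The sequence just upstream of the start site is shown for Sesn2, Ddit4 and Nox1, since these 3 genes changed after irradiation in WT ovaries. The sequences are from RefSeq (GRCm38.p6), read 5′ to 3′ on the gene's strand (minus in all 3). The Sesn2 and Ddit4 stretches stop before the first exon base of the gene in GENCODE M21, while the Nox1 stretch is the 250 bases before the RefSeq start, which lie inside the longer GENCODE gene but in none of its exons. Capitals mark a match, on either strand, to one of 6 motifs searched: the E-box CACGTG, the FOXO motif GTAAACA, the antioxidant response element TGACNNNGC, the ATF4 composite motif TGATGNAA, the hypoxia response core ACGTG (which every E-box of these letters contains), and the p53 half-site consensus. The Sesn2 stretch is chr4:132510502-132510706, the Ddit4 stretch is chr10:59951835-59952020 and the Nox1 stretch is chrX:134111855-134112104.
Sesn2: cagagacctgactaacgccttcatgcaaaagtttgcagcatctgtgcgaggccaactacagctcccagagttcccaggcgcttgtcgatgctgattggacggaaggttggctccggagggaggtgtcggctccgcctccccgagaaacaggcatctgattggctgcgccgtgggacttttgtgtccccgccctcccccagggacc
Ddit4: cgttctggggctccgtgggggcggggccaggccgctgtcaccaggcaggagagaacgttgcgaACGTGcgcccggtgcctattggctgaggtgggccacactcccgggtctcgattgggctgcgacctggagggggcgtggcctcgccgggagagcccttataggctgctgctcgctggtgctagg
Nox1: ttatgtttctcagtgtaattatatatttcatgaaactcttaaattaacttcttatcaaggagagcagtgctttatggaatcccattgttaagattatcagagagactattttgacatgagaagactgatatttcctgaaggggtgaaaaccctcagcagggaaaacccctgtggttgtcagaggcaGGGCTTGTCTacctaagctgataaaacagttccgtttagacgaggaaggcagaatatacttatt
The marked run in Ddit4 is the hypoxia response core, and that in Nox1 is a p53 half-site at -64 to -55 from the RefSeq start. The Sesn2 stretch held none of the 6 motifs, and the only match in its window was the antioxidant response element letters TGACAGAGC at -36. The GC content was 61.0% for Sesn2, 69.9% for Ddit4 and 38.0% for Nox1.

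All 10 genes had at least 1 of the 11 RefSeq windows (250 bases before to 50 after the start). A p53 half-site was found in 4 of the 11 windows (1 of Sesn1, and those of Ddit4l, Nox1 and Nox4), against 8.4% of all 32851 windows. The hypoxia core was found in Ddit4 and Gpx1 (19.6% of all windows), the antioxidant response element in Sesn2 and Ddit4l (12.4%), and the FOXO motif in Sesn1 and Txnip (3.6%). The E-box (7.2%) and the ATF4 motif (4.0%) were found in no window of these genes. A match describes letters in a window and was not tied to binding of any factor.

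In bulk WT ovaries Sesn2 and Ddit4 rose and Nox1 fell after irradiation, and the other 7 genes did not pass the test. None of the 10 passed it in Chek2-/- ovaries, and for Sesn2, Ddit4 and Nox1 the response differed between the genotypes. Levels are given as CPM, the counts of a gene relative to the TMM-scaled library size. Each p is from edgeR's quasi-likelihood test, adjusted over all 26790 genes by the Benjamini-Hochberg method, and a gene is called at an adjusted p of at most 0.05. Of all genes tested, 2.41% were called in WT (1.53% higher and 0.885% lower), 0.0112% in Chek2-/-, 1.03% in the interaction and 5.34% between sham-treated genotypes. The 10 genes were called in 3 of 10 cases in WT (2 higher, 1 lower), 0 of 10 in Chek2-/- and 3 of 10 in the interaction. The 10 were chosen with earlier results of these data known, so these counts are no independent support. Chek2 itself had 22.4 CPM ± 1.66 (SD, n = 6) in WT sham and 3.75 ± 0.545 in Chek2-/- sham libraries, and every Chek2-/- library lay below every WT library.

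Sesn2, a sestrin that relays leucine shortage to the GATOR2 complex, was the member with the largest rise. In WT sham libraries Sesn2 ranged from 14.9 to 19.1 CPM with a median of 15.7. In WT IR libraries it ranged from 39.5 to 48.6 CPM with a median of 44.2. All 6 irradiated WT libraries lay above all 6 sham libraries, a separation seen in 2.56% of all genes in either direction. The log2 fold change was 1.43 ± 0.12 (SE), which is 2.7-fold, with an adjusted p of 9.05e-09. In Chek2-/- libraries Sesn2 ranged from 13.3 to 28.2 CPM after sham and from 21.0 to 26.0 CPM after IR, and the ranges overlapped. Here the log2 fold change was 0.25 ± 0.12 with an unadjusted p of 0.0411 and an adjusted p of 1, although all 6 irradiated libraries lay above the sham mean. Leaving out single libraries moved this value between 0.16 (without Chek2-/- sham replicate 5) and 0.38 (without Chek2-/- sham replicate 1), and it was 0.11 without the 5 libraries that stood apart, which are named with the sham comparison. The WT response exceeded the Chek2-/- response by 1.18 ± 0.17 on the log2 scale (adjusted p = 0.000129).

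Ddit4, a small inhibitor of mTORC1 that acts through the TSC complex, rose by less. WT sham libraries held 45.8 to 55.8 CPM (median 51.1), and WT IR libraries held 65.6 to 84.2 CPM (median 70.8). These groups did not overlap either. The log2 fold change was 0.52 ± 0.09, or 1.43-fold, with an adjusted p of 0.000613. Chek2-/- libraries held 40.8 to 51.2 CPM after sham and 30.2 to 50 CPM after IR, with a log2 fold change of -0.17 ± 0.09 (adjusted p = 1). The interaction was 0.68 ± 0.13 on the log2 scale (adjusted p = 0.00308), so the fold in WT was 1.61 times that in Chek2-/-.

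Nox1, the catalytic subunit of a superoxide-producing oxidase best known from colon epithelium, was the only one of the 10 that fell. WT sham libraries held 1.38 to 2.44 CPM (median 2.05) and WT IR libraries 0.148 to 0.480 CPM (median 0.309), with no overlap. In Chek2-/- libraries the level was 1.19 to 2.88 CPM after sham and 1.33 to 2.59 CPM after IR, about the level of WT sham libraries. The WT log2 fold change was -2.59 ± 0.27 (adjusted p = 3.7e-07), the Chek2-/- value was -0.04 ± 0.23, and the interaction was -2.55 ± 0.35 (adjusted p = 9.16e-05). Summed CPM of 6 genes listed as primordial oocyte markers also separated between the WT groups, at 339 to 407 after sham and 235 to 311 after IR. The 7 growing oocyte markers overlapped (3410 to 4330 against 3390 to 4130). In Chek2-/- libraries the 6 genes summed to 245 to 459 after sham and 313 to 437 after IR. These 6 genes do not mark primordial oocytes alone. In the single-cell libraries all 6 were also found in oocyte subcluster 6, named growing oocyte, with Nobox at 5.03 and Sycp3 at 4.42 UMIs per 10000. All 6 were lower in subcluster 0, an unnamed one with Gdf9 at 51.3 against 19.6 in subcluster 6. There Nobox was at 3.52, Sycp3 at 2.42 and Sohlh1 at 0.797, against 3.157 for Sohlh1 in subcluster 6. In bulk ovaries, fewer cells of a type and less RNA per cell cannot be told apart, and the part of the oocyte markers in the Nox1 result was not tested.

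**Figure D1:**
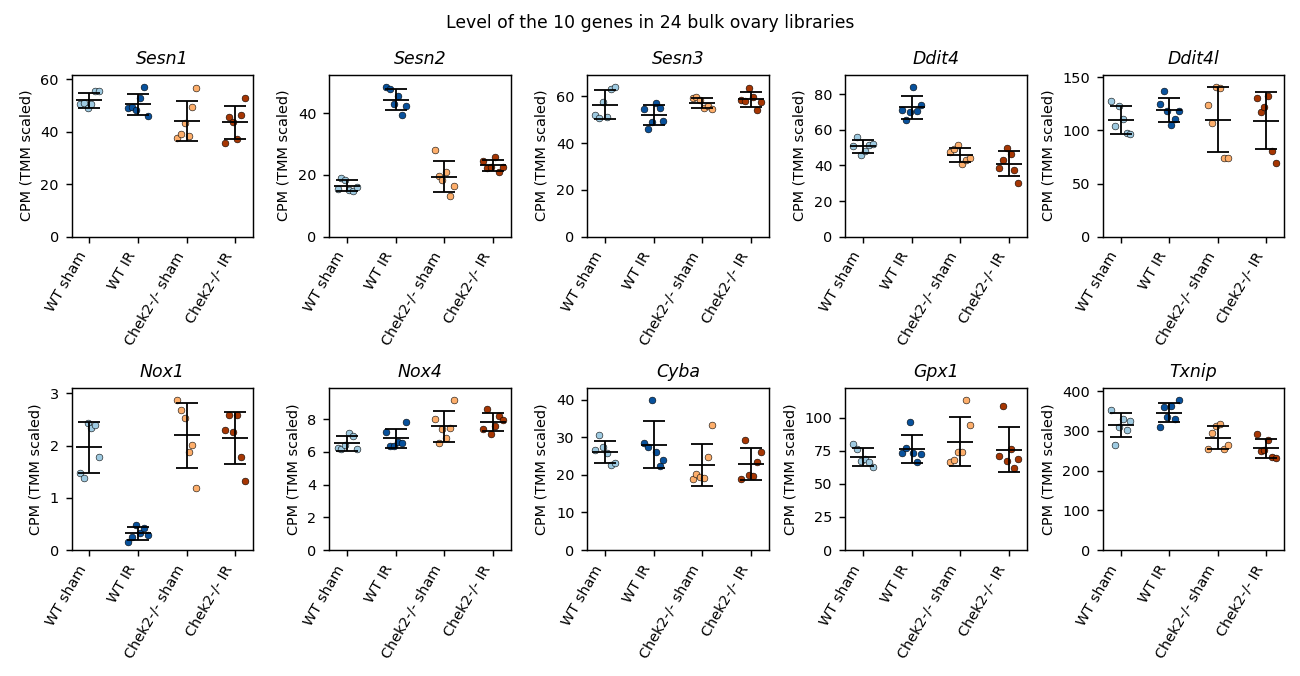
Level of each of the 10 genes (y axis, TMM-scaled CPM from 0) in the 24 bulk ovary libraries, by group on the x axis; points are libraries, and the bar and whiskers are the mean and SD of 6. The 6 WT IR points lie above all WT sham points for Sesn2 and Ddit4 and below them for Nox1, while the other genes overlap.

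The remaining sestrins did not follow Sesn2. Sesn1, a close paralogue, ranged from 49.1 to 55.7 CPM in WT sham and from 46.2 to 57.2 CPM in WT IR libraries, and its log2 fold change of -0.04 had a 95% interval of -0.24 to 0.15. Sesn3 ranged from 50.6 to 64.2 CPM and from 46.2 to 57.1 CPM in the same groups, with a log2 fold change of -0.12 and an interval of -0.25 to 0.01. A rise of Sesn1 or Sesn3 as large as that of Sesn2, whose interval began at 1.19, lay outside both intervals. In Chek2-/- libraries the changes were -0.02 for Sesn1 and 0.04 for Sesn3 (adjusted p = 1 for each).

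Ddit4l, the paralogue of Ddit4 that is known from skeletal muscle, was 96.5 to 128 CPM in WT sham and 105.3 to 136.8 CPM in WT IR libraries (log2 fold change 0.12 ± 0.16, adjusted p = 0.902). In the Chek2-/- groups replicates 5 and 6 stood apart, at 69.6 to 80.9 CPM, where the other 8 libraries held 107 to 141 CPM. The same replicates had the highest Sesn1 values of their groups, at 46.3 to 56.8 CPM against 35.9 to 45.7 CPM in the others.

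Among the oxidase genes, Nox4, which makes hydrogen peroxide without cytosolic subunits, was 6.17 to 7.17 CPM in WT sham and 6.33 to 7.86 CPM in WT IR libraries (log2 fold change 0.06 ± 0.09). Cyba was 22.6 to 30.6 and 22.3 to 39.9 CPM in these groups (0.11 ± 0.15 on the log2 scale). The top Cyba value, 39.9 CPM, came from WT IR replicate 3, in which 6 neutrophil markers summed to 1200 CPM against a group median of 7.06. Without WT IR replicate 3 the Cyba change was -0.02 on the log2 scale. Gpx1 was 62.7 to 79.9 CPM after sham and 66.8 to 96.8 CPM after IR in WT (0.12 ± 0.13), and its top value was in the same replicate. In the Chek2-/- groups Gpx1 was highest in sham replicate 5 (113.5 CPM) and IR replicate 2 (108.9 CPM), against 94.7 and 76.4 CPM in the next highest library of each. Erythroid markers summed to 10400 and 7050 CPM in these 2 libraries, against group medians of 641 and 457 CPM. Neutrophil markers summed to 21.3 and 1290 CPM in the same 2 libraries. The part of blood cells in these values was not tested.

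Txnip, the most abundant of the 10, ranged from 265 to 353 CPM in WT sham and from 311 to 378 CPM in WT IR libraries. In Chek2-/- libraries it ranged from 253 to 318 CPM after sham and from 231 to 292 CPM after IR. The change was 0.14 ± 0.07 in WT and -0.15 ± 0.07 in Chek2-/- on the log2 scale, in opposite directions. Neither passed (adjusted p = 0.521 and 1), and the interaction of 0.28 ± 0.11 had an unadjusted p of 0.0126 and an adjusted p of 0.319.

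**Figure D2:**
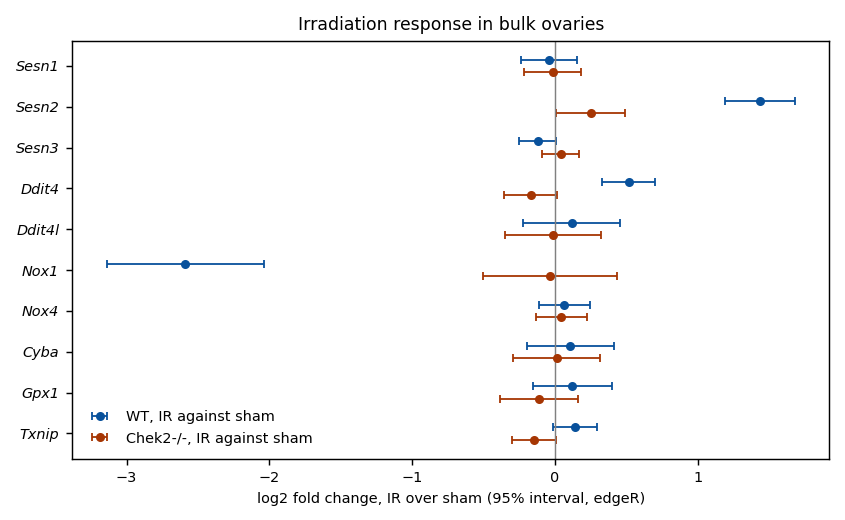
Log2 fold change of IR over sham (x axis) with its 95% interval from edgeR for each gene (y axis), in WT and in Chek2-/- ovaries, n = 6 a group. In WT the intervals of Sesn2 and Ddit4 lie above 0 and that of Nox1 below 0, and in Chek2-/- the intervals include 0 for all genes but Sesn2, whose lower bound is 0.01.

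Between sham-treated genotypes, 0 of the 10 genes were called by edgeR, and none by DESeq2 or limma-voom, although 3 had an unadjusted p under 0.05. These were Sesn1 (log2 difference of Chek2-/- from WT -0.24), Nox4 (0.21) and Sesn2 (0.24), with edgeR adjusted p of 0.142, 0.142 and 0.23. When 5 libraries that stood apart by marker levels were left out, 3 genes were called: Sesn1 at -0.39, Sesn2 at 0.41 and Cyba at -0.41 on the log2 scale (edgeR, adjusted p of 0.00392, 0.0195 and 0.00648). These 5 were WT IR replicate 3, Chek2-/- IR replicates 2 and 6 and Chek2-/- sham replicates 5 and 6, chosen after the data were seen. The count of 3 called genes in WT, 0 in Chek2-/- and 3 in the interaction was unchanged without these 5 libraries. Leaving out Chek2-/- sham replicate 6 alone also brought a call for Sesn1 (adjusted p = 0.0337). In Chek2-/- IR, the count of 0 from edgeR was also 0 by DESeq2 and limma-voom, with 1 gene (Sesn2) under an unadjusted p of 0.05. Nnt, a mitochondrial transhydrogenase gene known to be damaged in C57BL/6J, had 32.4 CPM ± 4.22 in WT sham and 66.8 ± 8.97 in Chek2-/- sham libraries, and no source used here gave the background of the Chek2-/- line, so allele and background cannot be told apart. In the single-cell libraries Nnt was at 0.0569 UMIs per 10000 in WT sham and 0.0516 in Chek2-/- sham cells. In granulosa-like cells its Chek2-/- to WT ratio was 0.814 (limits 0.711 to 0.932). UMIs per 10000 and CPM from bulk estimated counts are unlike measures, and the cause of the difference between them was not tested.

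Per length of exon, the 10 genes fell in a wide order in WT sham libraries. Txnip led at 85.0 to 113 CPM per kb, above every other gene in every library. Gpx1 (43.5 to 55.4 CPM per kb) and Ddit4l (33.1 to 43.9 CPM per kb) overlapped, as did Ddit4 (26.1 to 31.8 CPM per kb) and Cyba (21.7 to 29.5 CPM per kb). Sesn1 stood at 12.3 to 14 CPM per kb, Sesn2 at 4.28 to 5.50 and Sesn3 at 3.32 to 4.21, with no overlap between them. Nox4 (0.728 to 0.846 CPM per kb) and Nox1 (0.416 to 0.738 CPM per kb) were lowest and overlapped. In the GENCODE M21 annotation (GRCm38), Nox1 lies on the minus strand of chromosome X from 134086421 to 134221956 and shares 399 exon bases with Cstf2 on the other strand, and Txnip (chromosome 3, 96557957 to 96561883) shares 606 exon bases with the antisense gene Gm15441. No source used here said whether the counting used strand, and without strand reads in these stretches cannot be told apart. Sesn2 (chromosome 4, 132492032 to 132510501, minus strand) and Ddit4 (chromosome 10, 59949669 to 59951834, minus strand) share no exon base with another gene.

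Genes whose level followed each member most closely over the 24 libraries were ranked by Pearson's r of log2 CPM among 15956 genes, as a description in which group differences enter r. For Sesn2 these were Espnl, Bbc3 and Plch2 (r = 0.93, 0.93 and 0.92); Bbc3 encodes the death protein PUMA, a p53 target. Ddit4 was followed by Galnt6, Ifi30 and Trp73 (r = 0.91 each), of which Trp73 encodes the p53 relative p73. Nox1 was followed by Grpel2, F730016J06Rik and Gabra3 (r = 0.95, 0.95 and 0.94). In the single-cell libraries F730016J06Rik had 0.227 UMIs per 10000 in oocyte-like cells and at most 0.00322 in any other named class, and Gabra3 was highest in oocyte-like cells too, at 0.314, with 0.134 in smooth muscle-like and 0.132 in fibroblast-like cells. Ddit4l was closest to Fshr, the granulosa receptor for follicle-stimulating hormone (r = 0.91), and Gpx1 to Cd24a, Slc4a1 and Nfe2 (r = 0.86, 0.84 and 0.82), of which Slc4a1 and Nfe2 are erythroid genes. For Gpx1 the rank correlations were lower (0.45, 0.49 and 0.59), and the highest values of Gpx1 were those of the erythroid-rich libraries. Cyba was closest to Ctsz (r = 0.88), Sesn1 to Fxyd6 (0.92), Sesn3 to Kmt2c (0.83), Nox4 to Azi2 (0.83) and Txnip to Slc4a8 (0.85).

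The surrounding pathways were read from 10 gene lists with 153 genes, of which 152 were tested; none of the 10 members is counted in these lists. After irradiation in WT, 6 of the 152 were called (5 higher, 1 lower; 3.95%, beside 2.41% of all genes), and the 5 that rose all belonged to the 12 genes listed as p53 targets in metabolism and redox. Trp53inp1, a stress protein in autophagy, went from 44.1 to 57.7 CPM in sham to 110 to 130 CPM in IR libraries (log2 fold change 1.23 ± 0.09, adjusted p = 1.84e-09). Cpt1c, a brain-type carnitine palmitoyltransferase, went from 11.2 to 15.0 CPM to 19.9 to 27.9 CPM (0.95 ± 0.09, adjusted p = 1.77e-07). Gls2, mitochondrial glutaminase, had a mean of 1.18 CPM in sham and 2.37 CPM in IR libraries (0.99 ± 0.20). Aldh4a1, a proline-degrading enzyme, rose by 0.59 ± 0.08 and Lpin1, a phosphatidate phosphatase, by 0.44 ± 0.08 on the log2 scale. In all 5 genes the WT groups did not overlap, a separation seen in 2.56% of all genes. The 5 genes were picked by a test on these same libraries, so the separation is no further support. The lists were also chosen with earlier results of these data known. Of the 5 genes, Trp53inp1, Cpt1c and Aldh4a1 also passed the interaction test, at 1.04, 0.72 and 0.49 on the log2 scale (3 of 152, 1.97%, beside 1.03% of all genes). The median log2 fold change of that list was 0.10 in WT, where the median over all genes was -0.00.

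The other lists held few or no called genes in WT. Beside the members themselves, none was called among 41 genes of amino acid and stress input to mTORC1, 14 NADPH oxidase subunits other than Nox1, Nox4 and Cyba, 17 peroxide and superoxide enzymes, 16 genes of glutathione and NADPH supply, 11 thioredoxin and alpha-arrestin genes, 12 NRF2 pathway genes, 8 glucocorticoid targets and 12 hypoxia targets. Their WT medians lay between -0.05 and 0.04 on the log2 scale, except for the oxidase subunits at 0.34. In that list the genes of the phagocyte oxidase (Cybb, Ncf1, Ncf4 and Rac2) had WT log2 fold changes of 2.21, 2.78, 3.02 and 1.74 with unadjusted p of 0.0263, 0.0199, 0.0182 and 0.0252, and in none of them did the groups separate. The 6 neutrophil markers summed to 1200 CPM in WT IR replicate 3 and to at most 16.4 CPM in WT sham libraries, and their part in these values was not tested. The only call among 16 ATF4 and integrated stress response genes was Phgdh, the first enzyme of serine synthesis, which fell by 0.27 on the log2 scale (adjusted p = 0.0333). In Chek2-/- ovaries 0 of the 152 genes were called by edgeR, DESeq2 or limma-voom.

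Between sham-treated genotypes 15 of the 152 genes were called (10 higher and 5 lower in Chek2-/-; 9.87%, beside 5.34% of all genes). The largest differences were in Atf3, a stress transcription factor (log2 difference 1.15 ± 0.21, 4.49 to 9.99 CPM in the means), Nnt (1.05 ± 0.09), Ppp1r15a, which reverses eIF2-alpha phosphorylation (0.84 ± 0.16), and the glucocorticoid-responsive kinase gene Sgk1 (0.74 ± 0.18). Among those lower in Chek2-/- were Arrdc1, an alpha-arrestin like Txnip (-0.41 ± 0.09), Idh2 (-0.25 ± 0.07), Prdx2 (-0.21 ± 0.06) and, by smaller amounts, Prkab1, a subunit of the energy sensor AMPK (-0.14 ± 0.03). Of the p53 targets that rose in WT, Cpt1c had sham means of 13.1 CPM in WT and 10.4 CPM in Chek2-/-. The sham means of Trp53inp1 were 50.3 CPM in WT and 62.8 CPM in Chek2-/-. The count of 15 called genes ranged from 6 to 20 when each library was left out in turn and was 28 without the 5 libraries that stood apart.

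The single-cell libraries held 9277 WT sham, 9779 WT IR, 8697 Chek2-/- sham and 8771 Chek2-/- IR cells after filters and doublet removal, with 13908 to 17135 UMIs in the median cell. Clusters were rebuilt here and named from marker lists, without the 10 genes, the listed pathway genes or the study's radiation-responsive genes among the variable genes, so names can differ from the study's. A level is the UMIs of a gene per 10000 UMIs of all cells of a class in 1 library, with exact Poisson 95% limits that cover counting error only. Pairs of libraries shared 30 to 73 barcodes. Classes are called X-like; the oocyte-like class had 196, 171, 75 and 140 cells in the order above, and the erythroid-like cluster also held the granulosa gene Amh at 1.87 per 10000.

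Each gene had its own distribution over the 9 named classes. Sesn3 was highest in oocyte-like cells (1.24 per 10000 over all libraries; 1.11 to 1.33 by library), followed by fibroblast-like cells (0.671). Sesn1 was lowest in oocyte-like cells (0.136) and highest in macrophage-like cells (0.913). Sesn2 was at 0.0547 to 0.122 over the classes when summed over the 4 libraries, and in the WT IR library alone it reached 0.327 in oocyte-like, 0.173 in pericyte-like (22 UMIs) and 0.168 in fibroblast-like cells. Summed over the 4 libraries, Ddit4 was highest in epithelial-like (1.13), endothelial-like (0.894) and pericyte-like cells (0.783) and low in fibroblast-like cells (0.111). In the WT IR library alone its oocyte-like level of 1.33 was above those of epithelial-like (0.966), endothelial-like (1.06) and pericyte-like cells (0.863). Its paralogue Ddit4l had another order by the same sum, led by fibroblast-like cells at 1.31. Erythroid-like (0.993), smooth muscle-like (0.778) and granulosa-like cells (0.685) came next, and endothelial-like cells were lowest at 0.121. Cyba stood at 14.9 in macrophage-like cells, against at most 2.23 in any other named class, and at 0.185 in oocyte-like cells. Gpx1 was highest by this sum in macrophage-like (5.33), smooth muscle-like (3.87) and erythroid-like cells (3.66). Nox4 was highest in endothelial-like cells (0.195), with 0.0732 in smooth muscle-like cells, and was not seen in macrophage-like cells. Txnip was highest by this sum in smooth muscle-like (4.97) and oocyte-like cells (4.89).

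**Figure D3:**
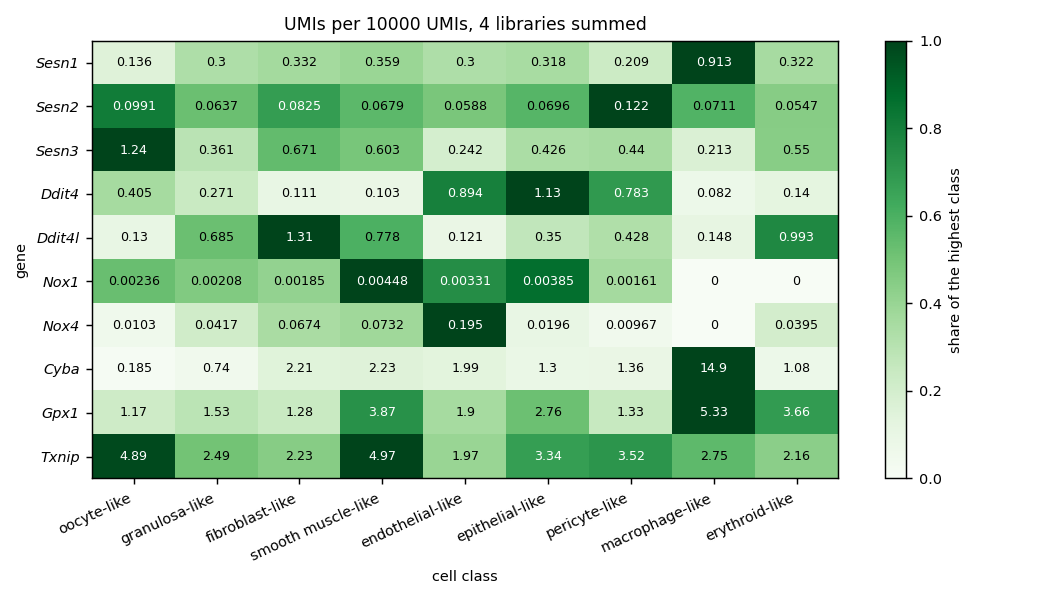
UMIs per 10000 UMIs of each gene (rows) in each of the 9 named cell classes (columns), summed over the 4 single-cell libraries; the number in each cell is the level, and the shade is its share of the row's highest class. Sesn3 is darkest in oocyte-like, Ddit4l in fibroblast-like, Ddit4 in epithelial-like, Nox4 in endothelial-like and Cyba in macrophage-like cells.

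Nox1 was at the edge of detection in the single-cell libraries, with 0 to 25 UMIs in any class and library. Granulosa-like cells had 25 UMIs in WT sham and 7 in WT IR, or 0.00343 and 0.000898 per 10000 (ratio 0.262, limits 0.0956 to 0.623), and 20 and 13 in the Chek2-/- libraries. Fibroblast-like cells had 10 and 12 UMIs in WT sham and WT IR (ratio of levels 1.2, limits 0.476 to 3.11). Oocyte-like cells had 7 and 5 UMIs, or 0.00242 and 0.00374 per 10000 (ratio 1.54, limits 0.387 to 5.65). At these counts no order of classes was read for Nox1.

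Sesn2 was higher in the WT IR than in the WT sham library in every named class with at least 20 UMIs. In oocyte-like cells it went from 0.0446 per 10000 (129 UMIs) to 0.327 (438 UMIs), a ratio of 7.34 with limits of 6.02 to 9.01. Fibroblast-like cells went from 0.0385 to 0.168 (4.36-fold, 3.8 to 5.01) and granulosa-like cells from 0.0336 to 0.135 (4.01-fold, 3.49 to 4.63). With cells thinned to 3000 UMIs the granulosa-like ratio was 6.53. The ratio was 3.20 in endothelial-like, 3.12 in smooth muscle-like and 1.81 in epithelial-like cells, while in pericyte-like cells the limits of 0.808 to 3.38 included 1. Sesn2 was at least 2-fold higher in 5 of 7 classes. Of all genes with at least 100 UMIs, such a rise was seen for 5.9% in oocyte-like, 0.518% in fibroblast-like, 1.15% in granulosa-like, 0.331% in endothelial-like, 0.304% in smooth muscle-like, 2.15% in epithelial-like and 0.26% in pericyte-like cells. Sesn2 had fewer UMIs than that in 3 of these classes, and among genes with 20 to 99 UMIs the share was 2.61% in endothelial-like, 3.14% in smooth muscle-like and 2.58% in pericyte-like cells. Within the 4 larger granulosa-like clusters the ratio was 2.48 to 5.09, and within the 4 fibroblast-like clusters 3.89 to 6.13. In the Chek2-/- libraries the ratio was 1.37 in oocyte-like (0.962 to 1.98), 1.54 in fibroblast-like (1.34 to 1.77) and 1.03 in granulosa-like cells (0.881 to 1.19). It was 2.66 in smooth muscle-like cells (1.14 to 6.91, from 8 and 22 UMIs) and 2.34 in endothelial-like cells (0.869 to 7.29, from 6 and 16 UMIs). In epithelial-like and pericyte-like cells the Chek2-/- ratios were 0.919 (0.554 to 1.52) and 0.6 (0.288 to 1.20).

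Free RNA can carry UMIs between cells. In the WT IR library, erythroid-like cells held Sesn2 at 0.131 (10 UMIs) and macrophage-like cells at 0.101 (7 UMIs), beside 0.135 in granulosa-like cells. Over the 4 libraries the erythroid-like cluster also held Dcn at 7.66 and Amh at 1.87 per 10000. By the same sum the oocyte gene Ddx4 was at 1.11 in oocyte-like, 0.0088 in fibroblast-like and 0.00871 in granulosa-like cells. The part of free RNA in the Sesn2 level of these somatic classes was not tested. The oocyte-like level of 0.327 was above that of all other named classes in the same library.

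Ddit4 followed another pattern. In oocyte-like cells it went from 0.161 per 10000 (466 UMIs) in WT sham to 1.33 (1780 UMIs) in WT IR, a ratio of 8.26 (7.45 to 9.17). The ratio was 3.85 as a mean over cells and 4.43 with cells thinned to 3000 UMIs. Ddit4 was 3.29-fold higher in smooth muscle-like (1.99 to 5.62) and 2.66-fold higher in fibroblast-like cells (2.39 to 2.96), at 0.177 and 0.190 in WT IR. In the same library erythroid-like (11 UMIs) and macrophage-like cells (10 UMIs) each held Ddit4 at 0.144. The part of free RNA in these levels was not tested. The classes with high Ddit4 without irradiation differed less, with ratios of 1.41 in endothelial-like, 1.21 in pericyte-like and 0.974 in epithelial-like cells. Granulosa-like cells, with 0.240 and 0.313, had a ratio of 1.3 (1.23 to 1.39), and their most dividing cluster had 0.972. In the Chek2-/- libraries Ddit4 was lower after irradiation in granulosa-like (0.753, limits 0.709 to 0.800), fibroblast-like (0.863, 0.771 to 0.965) and epithelial-like cells (0.902, 0.816 to 0.996), and higher in pericyte-like cells (1.32, 1.04 to 1.69).

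**Figure D4:**
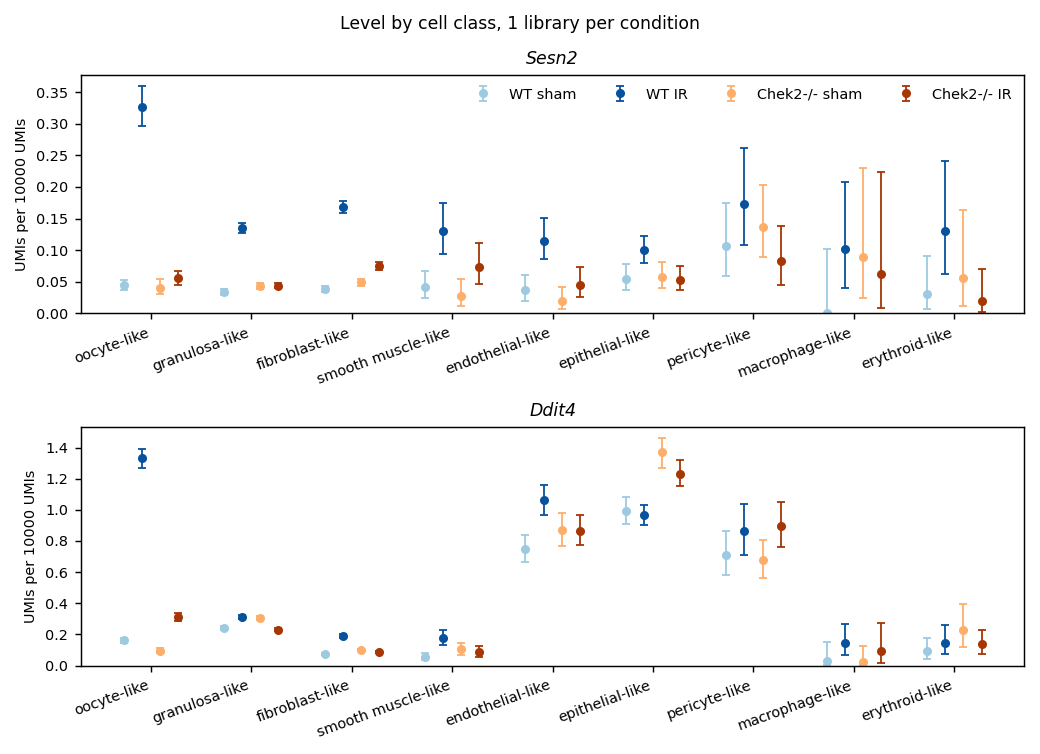
Level of Sesn2 and Ddit4 (y axes, UMIs per 10000 UMIs) in 9 cell classes (x axis) in the 4 single-cell libraries, 1 library a condition; bars are exact Poisson 95% limits and cover counting error only. The WT IR point is highest for both genes in oocyte-like cells (0.327 and 1.33), and for Ddit4 the epithelial-like, endothelial-like and pericyte-like classes are high in all libraries.

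Ddit4 was also 3.29-fold higher (2.68 to 4.06) in the Chek2-/- IR than in the Chek2-/- sham oocyte-like cells, at 0.313 against 0.0952, where 1.59% of all genes were at least 2-fold higher. Most of this came from few cells: 434 of the 559 Ddit4 UMIs in the Chek2-/- IR library were in 9 cells of oocyte subcluster 0. That subcluster, 69 cells in all, had Oosp1, Eif4e1b and Bmp15 among its leading genes and had Gdf9 at 51.3 per 10000, genes of growing oocytes, but did not pass the naming rule. In subcluster 6, which was named growing oocyte, Gdf9 was at 19.6. Zp2 and Zp3, of the same marker list, were at 18.2 and 23.7 in subcluster 0, against 31.7 and 39.4 in subcluster 6. The Ddit4 level of subcluster 0 was high in every library, at 0.888 in WT sham (39 cells), 1.49 in WT IR (17 cells), 0.696 in Chek2-/- sham (4 cells) and 1.84 in Chek2-/- IR (9 cells). Outside subcluster 0 the WT level went from 0.0848 to 1.29, a ratio of 15.3 (13.2 to 17.7), and the Chek2-/- level from 0.0439 to 0.0807, a ratio of 1.84 (1.31 to 2.62). Depth differed with the comparison: outside subcluster 0 the median oocyte-like cell had 192268 UMIs in WT sham and 11401 in WT IR. With cells thinned to 3000 UMIs, the WT oocyte-like ratio was 4.43 for Ddit4 and 9.45 for Sesn2, and the Chek2-/- ratio for Ddit4 was 0.736. Thinning left out the shallower cells, which were 7 of 196 oocyte-like cells in WT sham, 51 of 171 in WT IR, 2 of 75 in Chek2-/- sham and 21 of 140 in Chek2-/- IR. The part of depth in these ratios was not tested further. For Sesn2 the WT ratio was 8.58 (6.94 to 10.7) outside subcluster 0 and 2.44 (1.34 to 4.62) within it. The irradiated WT oocytes did not mix evenly with the rest: subcluster 7, with 64 cells, held only WT IR cells, with Sesn2 at 0.359 and Ddit4 at 1.36. No batch correction was run and each condition had 1 library, so this cannot be told apart from a property of the WT IR library. Subcluster 2, which held cells of all 4 libraries, had Sesn2 at 0.0539 and 0.422 and Ddit4 at 0.0819 and 0.943 in WT sham and WT IR. Depth differed here too, with a median of 189822 UMIs in 52 WT sham cells and 21282.5 UMIs in 26 WT IR cells.

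Txnip was lower in the Chek2-/- IR than in the Chek2-/- sham library in all 9 named classes, with ratios from 0.360 to 0.936. In fibroblast-like cells it went from 2.17 to 1.17 per 10000 (0.539, limits 0.524 to 0.554) and in granulosa-like cells from 2.54 to 1.4 (0.552, limits 0.540 to 0.565), while oocyte-like cells differed least (0.936). In oocyte-like cells the ratio was not below 1 by other measures, at 1.00 as a mean over cells and 1.02 with cells thinned to 3000 UMIs. In WT the ratio was 0.717 to 1.21 over the classes, with 6 of 9 below 1. The highest, in granulosa-like cells, was 0.940 without doublet removal, a setting in which a cluster of 3719 cells led by Gm2044 and Igfbp2 was not named and so was not in the class. A shift in every class of 1 library cannot be told apart from a property of that library, and the bulk change in Chek2-/- ovaries, with 6 libraries a group, was -0.15 ± 0.07 on the log2 scale.

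Within the granulosa-like and fibroblast-like classes, Txnip was lowest where the most cells had a UMI of Top2a, a gene of dividing cells. Granulosa-like cluster 0, with 88.8% such cells, had Txnip at 1.11 per 10000, cluster 1 (42.4%) at 1.49 and cluster 2 (14.5%) at 5.52. Cluster 2 had Amh, which marks growing follicles, at 0.843, against 5.55 and 5.97 in clusters 0 and 1. Fibroblast-like cluster 6 (90.8%) had Txnip at 1.14, and clusters 4, 7 and 9 (10.3 to 14.4%) had 2.01, 4.35 and 4.31. The median depth also differed, from 32110 UMIs in cluster 0 to 8741 in cluster 7. These are descriptions of clusters built from the same cells, without Txnip itself.

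**Figure D5:**
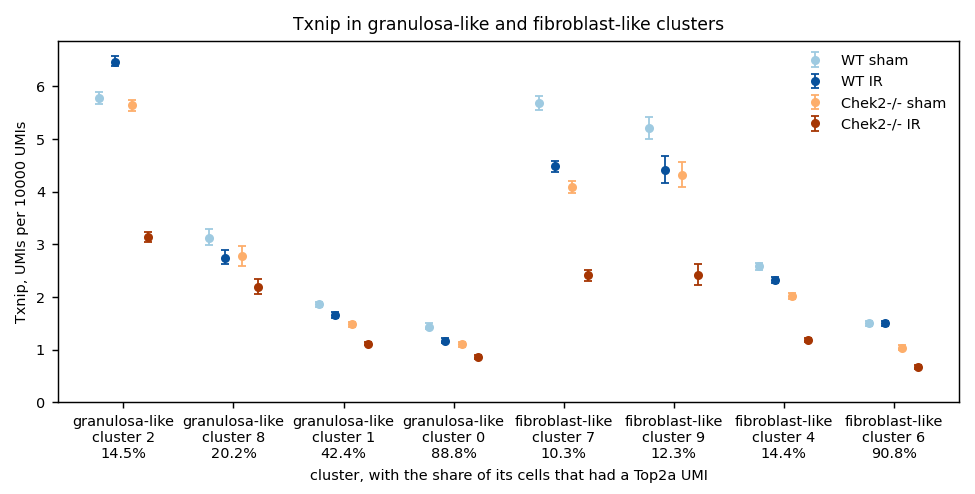
Txnip (y axis, UMIs per 10000 UMIs) in the granulosa-like and fibroblast-like clusters of at least 100 cells (x axis, with the share of cells that had a Top2a UMI) in the 4 libraries, with exact Poisson 95% limits. The level is lowest in the dividing clusters (0 and 6), and in every cluster shown the Chek2-/- IR point is below the Chek2-/- sham point.

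Ddit4l in fibroblast-like cells was 0.951 and 0.940 per 10000 in WT sham and WT IR but 1.51 and 1.83 in Chek2-/- sham and IR, while in bulk the log2 difference between sham-treated genotypes was -0.00 with a 95% interval of -0.34 to 0.34. Sesn1 in granulosa-like cells was 0.324 and 0.294 in WT and 0.319 and 0.267 in Chek2-/- libraries, and Sesn3 in oocyte-like cells was 1.25 and 1.11 in WT and 1.33 and 1.26 in Chek2-/-, each sham before IR. Cyba in macrophage-like cells was 13.7 to 17.6 in the 4 libraries, which held 23 to 54 such cells.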

How the data were processed

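Bulk RNA-seq libraries (24, polyA RNA, KAPA mRNA HyperPrep) were quantified per gene by the authors with Salmon 1.3.0 after Trim Galore 0.6.5, and single-cell libraries (4, 10x Chromium) with Cell Ranger. The deposited bulk values are estimated counts per gene, not scaled between libraries and rounded to whole numbers here. The deposited single-cell values are raw UMI counts per gene and cell. Bulk libraries held 17824920 to 32605519 counts. Groups came from the labels. Genes with at least 10 counts over the 24 libraries were tested with edgeR 4.0.16 (R 4.3.3; TMM, quasi-likelihood, 1 coefficient a group, Benjamini-Hochberg), with the interaction as the WT change minus the Chek2-/- change. DESeq2 1.42.0, limma 3.58.1, other filters and scalings, a replicate block and leaving out libraries were alternatives. The test was checked on simulated data.

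Cells with at least 1000 genes, at most 20% mitochondrial and 50% ribosomal UMIs were kept, as the study's methods state. Doublets (4.02 to 5.47%) were removed with scrublet, and cells were clustered with scanpy 1.11.5 (2000 variable genes, 30 components, 15 neighbours, Leiden at 0.5) and named from marker lists. No batch correction was run here, while the study corrected batches with Harmony. UMIs were summed per class and library. Single-cell libraries were compared by levels and ratios, with no p. Exact Poisson limits do not cover variation between animals.

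The members, gene lists and marker lists were chosen with earlier results of these data known. Named genes were the 10 members, Chek2, Nnt, up to 3 called genes of each pathway list with the smallest adjusted p per comparison and direction, and the 3 genes most like each member by Pearson's r (mean CPM of at least 1). The 5 called genes of the p53 list were all named since their count was small, and the phagocyte oxidase genes were named after their values were seen.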

Additional observations from a re-analysis of the deposited data

Results flagged for a closer look

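Among 40 groups of 6 libraries (10 genes in 4 groups), 3 held a library far from the other 5. Chance gives about 1 in 20 groups, and 3 of 40 is near that share. Cyba was 39.9 CPM in WT IR replicate 3, with the next highest library at 28.4 CPM. Gpx1 was 96.8 CPM in the same library, with the next at 76.8 CPM. Gpx1 was also 109 CPM in Chek2-/- IR replicate 2, with the next at 76.4 CPM. These are the 2 libraries whose neutrophil markers summed to 1200 and 1290 CPM, against at most 21.3 CPM elsewhere. In the same order, macrophage markers summed to 159 and 237 CPM and erythroid markers to 326 and 7050 CPM. The part of any of these cells was not tested.

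For 3 genes the response to irradiation differed between WT and Chek2-/- ovaries by edgeR's interaction test. The difference (WT minus Chek2-/-) was 1.18 for Sesn2, 0.685 for Ddit4 and -2.55 for Nox1 on the log2 scale.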

How the results depend on the processing

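Sesn2, Ddit4 and Nox1 kept their direction and an adjusted p of at most 0.05 in WT and in the interaction under every alternative run. With a 2-fold rule added, 2 of these 3 were called in each comparison, since Ddit4 (1.43-fold in WT and 1.61 in the interaction) does not reach it. The labels tie same-numbered libraries of different groups by nothing but the number. Their deviations from the group means correlated at 0.058 to 0.657 between the Chek2-/- groups, at -0.047 to 0.397 between the WT groups and at 0.022 to 0.123 between the sham groups. The libraries that correlated best with their own number were 4 of 6, 1 of 6 and 2 of 6, which for the Chek2-/- groups is a hint of pairing from the data, not from the design. No blocked fit changed a call of the 10 genes: with the replicate block the WT changes were 1.43 for Sesn2, 0.51 for Ddit4 and -2.59 for Nox1 on the log2 scale. Counts of called pathway genes moved more. They were 5 in the interaction by DESeq2, and 6 between sham-treated genotypes when only those libraries entered the fit. With the 2-fold rule they were 1 in WT, 1 in the interaction and 2 between genotypes. Leaving out the 5 libraries, an alternative chosen after seeing the data, gave 3 called members and 28 called pathway genes between genotypes. Leaving out each library in turn gave 0 to 1 called members and 6 to 20 called pathway genes between genotypes. The cause of these moves was not tested.

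Changes near 0 changed sign. Ddit4l between genotypes was 0.003092 with no filter, 0.002866 with edgeR's own filter and 0.2236 without the 5 libraries. Without those libraries Cyba was -0.01657 in WT and -0.07891 in the interaction, and Sesn1 was 0.03265 in Chek2-/-. Over single left-out libraries, Cyba ran from -0.07138 to 0.1544 in Chek2-/-, from -0.04201 to 0.1891 in the interaction and from -0.01939 to 0.181 in WT. Ddit4l ran from -0.1047 to 0.08039 in Chek2-/- and from -0.08342 to 0.09075 between genotypes, and Gpx1 from -0.2457 to 0.003226 and Nox1 from -0.161 to 0.06073 in Chek2-/-. Nox4 ran from -0.03913 to 0.06572 in the interaction, Sesn1 from -0.08848 to 0.06784 in Chek2-/- and from -0.1061 to 0.06062 in the interaction, and Sesn3 from -0.009838 to 0.05901 between genotypes.

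In single cells, the WT ratio of Sesn2 in granulosa-like cells was 4.80 as a mean over cells and 6.53 with cells thinned to 3000 UMIs (leaving out 12 of 2981 WT sham and 132 of 3574 WT IR cells), and in oocyte-like cells 9.45 when thinned. That of Ddit4 in oocyte-like cells was 3.85 and 4.43. The Chek2-/- ratio of Ddit4 in oocyte-like cells was 0.736 when thinned, and that of Txnip was 1.00 as a mean over cells and 1.02 when thinned. The WT ratio of Txnip in granulosa-like cells was 0.940 without doublet removal, where the cells that made up the class also changed.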

Other observations

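Ddit4l, which was low in oocyte-like cells of every library, was 0.118 per 10000 in WT sham and 0.280 in WT IR oocyte-like cells, and 0.0581 and 0.0879 in Chek2-/- sham and IR. The fibroblast-like cells of the same libraries held 0.951, 0.940, 1.51 and 1.83, and the 7 fibroblast markers summed to 2.17 and 3.03 per 10000 in WT sham and WT IR oocyte-like cells and to 1.80 and 2.09 in Chek2-/- sham and IR. The part of RNA from fibroblasts in the Ddit4l values was not tested.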
